A study of Mus musculus with 8 samples.

Results

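The Notch pathway was followed through 10 genes in RNA from mouse Kupffer cells, which are macrophages that live in the liver sinusoids: the receptors Notch1, Notch2 and Notch4, the ligands Dll4 and Jag1, the nuclear effector Rbpj, the target genes Hes1, Hey1 and Nrarp, and Dtx3, a gene of the Deltex family. They were chosen by name, and are 10 of 32903 genes to which the deposited transcripts could be summed. Bulk RNA-seq libraries came from wild-type mice in 2 groups. The 5 naive libraries are labelled as untreated controls, although the treatment text carried by every sample, these included, describes only the carbon tetrachloride course. No mice given corn oil alone are among the samples. The 3 CCl4 libraries were from mice with fibrotic livers after 8 weeks of carbon tetrachloride in corn oil, given as 3 weekly doses of 0.75 mL/kg. The CCl4 libraries carry the numbers 1, 2-4 and 3, and the labels do not say whether 2-4 is a pool. They give no age or sex, and nothing on how the cells were isolated. Levels are in TPM, the usual unit of relative transcript abundance, which are scaled per transcript length and to the library's total and keep no sequencing depth, so the depth behind a value is unknown.

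Notch signalling passes between touching cells. A ligand of the Delta-like or Jagged family on 1 cell binds a receptor on its neighbour, ADAM proteases and then gamma-secretase cut the receptor, and its freed intracellular domain joins RBPJ on DNA and switches on genes such as Hes1, Hey1 and Nrarp. In the liver, DLL4 on sinusoidal endothelial cells is known to act on monocytes that settle in the sinusoid and take on the Kupffer cell programme. NOTCH1 and NOTCH4 are receptors of endothelium, NOTCH4 largely so, and NOTCH2 is used by several myeloid lineages.

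Upstream sequences are shown for the ligand that fell most, a target gene that fell and the effector that rose, since RBPJ binds a core written TGGGAA. Each sequence is the 250 bases before a RefSeq start on GRCm38.p6, plus strand, and capitals mark the core on either strand.
Dll4, chr2:119325534-119325783: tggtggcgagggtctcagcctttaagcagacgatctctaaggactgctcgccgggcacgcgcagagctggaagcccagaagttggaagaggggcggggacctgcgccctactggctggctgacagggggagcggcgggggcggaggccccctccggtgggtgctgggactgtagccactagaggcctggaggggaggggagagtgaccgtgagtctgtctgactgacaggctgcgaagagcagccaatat
Nrarp, chr2:25180508-25180757: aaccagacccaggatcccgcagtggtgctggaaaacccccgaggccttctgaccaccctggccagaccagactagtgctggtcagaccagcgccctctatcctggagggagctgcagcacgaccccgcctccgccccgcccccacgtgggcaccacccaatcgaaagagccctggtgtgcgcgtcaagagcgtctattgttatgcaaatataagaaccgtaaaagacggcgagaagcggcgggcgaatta
Rbpj, chr5:53590096-53590345: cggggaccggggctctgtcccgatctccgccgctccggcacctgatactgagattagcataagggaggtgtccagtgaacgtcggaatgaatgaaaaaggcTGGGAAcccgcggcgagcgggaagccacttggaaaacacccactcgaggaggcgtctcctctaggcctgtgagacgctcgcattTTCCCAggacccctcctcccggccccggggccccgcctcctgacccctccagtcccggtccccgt
The Rbpj window holds the core at 149 bases before the start on the plus strand and at 65 on the minus strand. Of the 8 windows of 7 of the genes, 2 hold it, both of Rbpj, against 21.6% of 32851 windows of RefSeq starts. Hes1, Hey1 and Dtx3 have no entry. A match describes letters only, and no match says only that these letters are not in this window.

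In the CCl4 libraries 5 of the 10 genes were lower (Dll4, Notch4, Nrarp, Hes1 and Notch1) and 2 were higher (Notch2 and Rbpj), while Jag1, Hey1 and Dtx3 did not pass the test. The test was limma on log2(TPM + 1) across 15629 genes, those that reached 1 TPM in 3 or more libraries, with Benjamini-Hochberg adjustment over all of them and a threshold of 0.05. All 10 genes passed this filter on low values. Over all tested genes 37.8% were called, 22.5% lower and 15.3% higher. For 8 of the 10 genes naive and CCl4 values were fully separate, 6 lower and 2 higher, against 36.9% of all tested genes (20.6% lower and 16.3% higher). The median log2 fold change was -1.22 over the 10 genes and -0.06 over all tested genes.

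**Figure D1:**
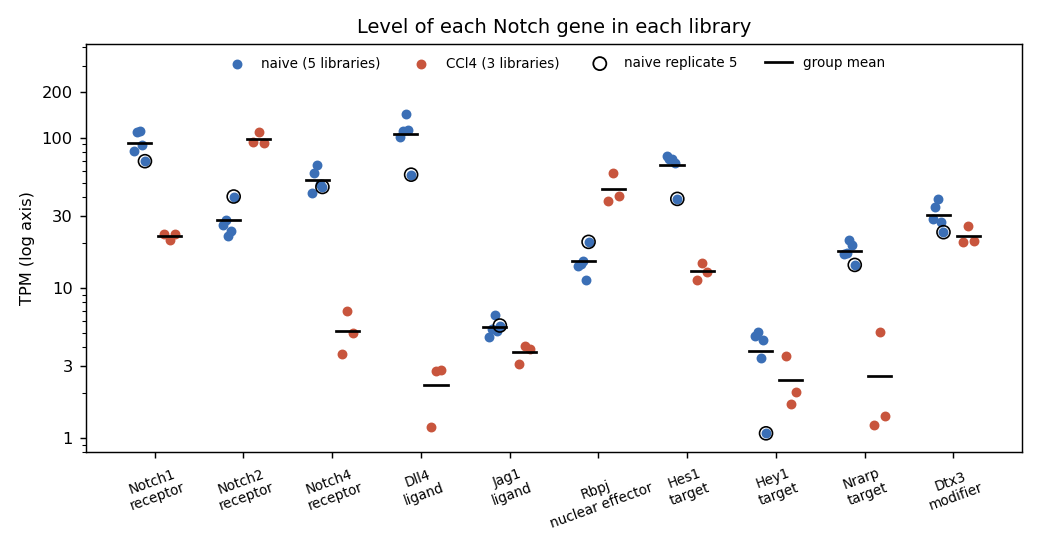
TPM on a log axis of each Notch gene in each library, with 5 naive libraries in blue, 3 CCl4 libraries in red, a black line at each group mean and a ring around naive replicate 5. Notch2 and Rbpj sit higher in all 3 CCl4 libraries, Dll4 and Notch4 far lower, and the groups of Hey1 and Dtx3 overlap.

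The makeup of the preparations bears on each of these values, since bulk RNA cannot tell fewer cells of a type from less RNA per cell. Kupffer cell markers were present and all 9 fell, with a summed level of 2666 to 5707 TPM in naive against 303.2 to 423.3 TPM in CCl4 libraries. All 10 sinusoidal endothelium markers and all 10 general endothelial markers fell too, from sums of 5246 to 10484 and 1733 to 3204 TPM to 364.6 to 545.3 and 92.8 to 219.6 TPM. Of the 9 monocyte markers 7 were tested and 4 rose, with sums of 136.7 to 243.2 and 687.6 to 1015 TPM. Naive replicate 5 stood apart from the other naive libraries: it was the lowest of them for all 10 sinusoidal endothelium markers, and its summed monocyte markers were the highest. The part of these cell types in the results on Notch genes was not tested.

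The receptors moved in opposite directions. Notch1 stood at 81.7, 108.3, 110.4, 88.7 and 69.6 TPM in naive replicates 1 to 5 and at 22.8, 20.6 and 22.9 TPM in CCl4 libraries 1, 2-4 and 3. Every CCl4 library was lower than every naive library, and the CCl4 libraries lay close together. The fall was 1.99 on the log2 scale of TPM + 1 (that is, a log2 fold change of -1.99, SE 0.167, limma adjusted p = 7.95e-06), from 91.8 ± 17.5 TPM (SD, n = 5) to 22.1 ± 1.26 TPM (SD, n = 3). Notch1 lies on chromosome 2, 26457902 to 26503822 (GRCm38).

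Notch2 went the other way, at 26.1, 28.2, 21.9, 23.9 and 40.5 TPM in the naive libraries and 93.0, 108.8 and 91.6 TPM in the CCl4 libraries. The groups did not overlap, and of the naive values that of replicate 5 came closest to the CCl4 values. Mean TPM was 28.1 ± 7.30 against 97.8 ± 9.55, and the log2 fold change was 1.79 (SE 0.189, limma adjusted p = 3.54e-05). Of all tested genes 98.2% had a lower log2 fold change. Notch2 lies on chromosome 3, 98013538 to 98150367. The monocyte markers Ccr2, a chemokine receptor, and S100a4, a calcium-binding protein, rose beside it by 3.79 and 3.39 on this scale. Of the 7 monocyte markers tested 4 rose, against 15.3% of all tested genes, and the others were not called. The dendritic cell markers went both ways, with Cd209a at 5.77 and Zbtb46 at -1.38, and 2 of 7 called higher and 2 lower. Their sums were 154.4 to 196.4 TPM in naive and 243.3 to 378.1 TPM in CCl4 libraries. The part of either cell type in the rise of Notch2 was not tested.

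Notch4, the endothelial receptor, had 42.8, 58.4, 65.7, 49.0 and 46.9 TPM in the naive libraries and 3.59, 6.96 and 5.0 TPM in the CCl4 libraries. Its mean was 10.1 times higher in naive libraries, with a log2 fold change of -3.13 (SE 0.203, limma adjusted p = 1.86e-06). It is on chromosome 17, 34564286 to 34588543. Of 3 matched transcripts of Notch4, the most abundant carried 84.5% of its TPM. The fourth receptor, Notch3, was at most 0.89 TPM in a library and was below the filter.

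Together the receptors summed to 172.9 ± 22.4 TPM in naive and to 125.4 ± 9.96 TPM in CCl4 libraries, and their makeup differed. Notch1 made up 44.3% to 55.6% of receptor TPM in the naive libraries and 15.1% to 19.1% in the CCl4 libraries. Notch2 made up 11.1% to 25.8% and 76.5% to 79.5%. Notch4 took 28.3% to 33.1% and 3.01% to 5.08%. Notch1 was thus the leading receptor transcript in all 5 naive libraries and Notch2 in all 3 CCl4 libraries.

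The within-library difference in log2(TPM + 1) between receptors was also compared between the groups. Notch1 minus Notch2 went from 1.68 ± 0.565 (SD, n = 5) to -2.09 ± 0.216 (SD, n = 3), a change of -3.77 (exact permutation p = 0.0357, two-sided, which is the lowest p possible with 5 and 3 libraries). Notch4 minus Notch2 went from 0.89 ± 0.490 to -4.03 ± 0.293, a change of -4.92 with the same exact permutation p. In all, 4 pairs within a role were compared, and each had an adjusted p of 0.0357 over the 4 by this exact permutation test. Both receptor pairs share Notch2, so they are not independent of each other. Notch1 and Notch4 were lower, and Notch2 higher, in every CCl4 library than in every naive library. Both receptor p-values therefore had to be the lowest possible, and they add no evidence to the separate results on these genes.

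**Figure D2:**
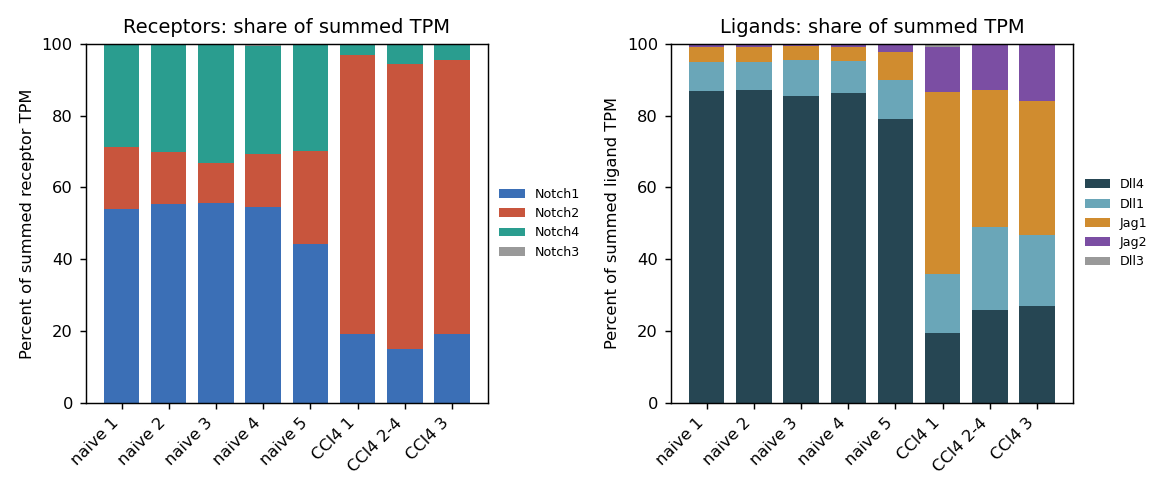
Share of summed TPM, in percent, taken by each Notch receptor (left, 4 genes) and each ligand (right, 5 genes) in each library. Notch2 takes 76.5% to 79.5% of receptor TPM in the CCl4 libraries, and Dll4 takes 79.2% to 87.2% of ligand TPM in the naive libraries.

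The ligand Dll4 had the widest change of the 10 genes. It stood at 101.0, 110.0, 144.4, 112.6 and 56.6 TPM in the naive libraries and at 1.18, 2.79 and 2.83 TPM in the CCl4 libraries. All CCl4 values were far under the lowest naive value, that of replicate 5. The means were 104.9 ± 31.6 and 2.27 ± 0.938 TPM, 46.3 times higher in naive libraries, and the log2 fold change was -5.0 (SE 0.289, limma adjusted p = 1.59e-06). Ordered by log2 fold change from the lowest, Dll4 was number 11 of 15629 tested genes. Dll4 lies on chromosome 2, 119325784 to 119335666. The sinusoidal endothelial gene Clec4g fell by 4.74 and the endothelial cadherin Cdh5 by 3.99 in the same libraries.

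Jag1, a Jagged ligand, was low in both groups, at 4.70, 5.33, 6.58, 5.11 and 5.60 TPM in naive against 3.12, 4.11 and 3.92 TPM in CCl4 libraries. The groups did not overlap, yet the difference missed the threshold, with a log2 fold change of -0.45 (SE 0.165, limma adjusted p = 0.0514). It passed with TPM rescaled to protein-coding genes (-0.55, limma adjusted p = 0.032) and with the most abundant transcript alone (-0.65, limma adjusted p = 0.0243). It also passed without 7SL and 7SK RNA, with versioned transcripts only, with a pseudocount of 0.1 or 0.5, without the intensity trend and with variances not pooled. With any 1 library left out it did not pass (limma adjusted p from 0.0561 to 0.169). Jag1 is on chromosome 2, 137081451 to 137116520.

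Dll4 minus Jag1, in log2(TPM + 1) within a library, went from 3.98 ± 0.480 (SD, n = 5) to -0.57 ± 0.301 (SD, n = 3), a change of -4.55 (exact permutation p = 0.0357, two-sided). The summed ligands Dll1, Dll3, Dll4, Jag1 and Jag2 were at 71.5 to 169.0 TPM in naive against 6.13 to 10.8 TPM in CCl4 libraries. In the naive libraries Dll4 made up 79.2% to 87.2% of that sum, and in the CCl4 libraries 19.3% to 26.9%. Jag1 made up 3.89% to 7.83% and 37.3% to 50.9%, so its share was higher in CCl4 libraries while its level was not. Dll1, another Delta-like ligand, fell from 11.1 ± 3.62 to 1.86 ± 0.765 TPM (log2 fold change -2.07, limma adjusted p = 0.000125).

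Rbpj, the DNA-binding partner of the cleaved receptor, was higher in the CCl4 libraries. It had 13.9, 14.4, 15.0, 11.2 and 20.2 TPM in the naive libraries and 37.8, 57.9 and 40.7 TPM in the CCl4 libraries. The groups did not overlap, and naive replicate 5 was the highest of its group. The log2 fold change was 1.54 (SE 0.200, limma adjusted p = 0.000151), between means of 14.9 ± 3.28 and 45.5 ± 10.9 TPM. Rbpj lies on chromosome 5, 53555779 to 53657445.

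The rise of Rbpj rests on how its transcripts are summed. Its 3 predicted RefSeq transcripts summed to 4.90, 5.51, 5.31, 6.86 and 15.1 TPM in the naive and 24.9, 49.3 and 29.0 TPM in the CCl4 libraries. Its 4 curated transcripts summed to 4.33 to 9.74 TPM in the naive and 8.59 to 12.9 TPM in the CCl4 libraries, and there the groups overlapped. With only those transcripts whose accession version matched the gene table, the log2 fold change was 0.55 and the call was lost (limma adjusted p = 0.147).

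Hes1, a repressor that is a direct Notch target in many cells, was at 75.1, 71.5, 72.3, 68.1 and 39.0 TPM in the naive and 11.3, 14.7 and 12.6 TPM in the CCl4 libraries. Naive replicate 5 was well below the other naive libraries and still above every CCl4 library. The log2 fold change was -2.22 (SE 0.214, limma adjusted p = 1.9e-05), and the means were 65.2 ± 14.8 and 12.9 ± 1.71 TPM. Its curated and its predicted transcript were both lower in the CCl4 libraries, the first going from 47.2 ± 10.6 to 11.5 ± 1.48 TPM and the second from 18.0 ± 5.56 to 1.41 ± 1.30 TPM. Hes1 lies on chromosome 16, 30065357 to 30067796.

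Nrarp, an ankyrin repeat protein that limits Notch signalling, was at 16.7, 16.9, 20.8, 19.2 and 14.2 TPM in naive against 1.23, 5.09 and 1.40 TPM in CCl4 libraries. CCl4 library 2-4 was the highest of its group, as it was for 47.2% of all tested genes. That library was also the highest of the 3 for 9 of the 10 sinusoidal endothelium markers, for 6 of the 8 T and NK cell markers and for all 6 B cell markers. In CCl4 libraries 1, 2-4 and 3 the T and NK cell markers summed to 77.0, 211.9 and 57.1 TPM, the B cell markers to 64.2, 150.3 and 61.5 TPM and the sinusoidal endothelium markers to 364.6, 545.3 and 487.5 TPM. Their part in the level of Nrarp was not tested. The log2 fold change was -2.53 (SE 0.302, limma adjusted p = 8.39e-05). Without library 2-4 it was -2.99. Nrarp is on chromosome 2, 25180758 to 25183339.

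Hey1, a target in endothelium and other tissues, was low, at 4.75, 5.09, 3.39, 4.51 and 1.07 TPM in naive against 3.54, 1.68 and 2.02 TPM in CCl4 libraries. The groups overlapped, and the log2 fold change of -0.42 (SE 0.347) was within the spread (limma adjusted p = 0.372). Naive replicate 5 was the lowest of all 8 libraries, and without it the log2 fold change was -0.70 and passed (limma adjusted p = 0.0242). Hey1 minus Hes1 within a library rose from -3.86 ± 0.298 (SD, n = 5) to -2.06 ± 0.565 (SD, n = 3), so the targets did not change by the same amount (change 1.80, exact permutation p = 0.0357, two-sided). Hey1 lies on chromosome 3, 8663359 to 8667038. The other targets on the list, Hes5, Hes7, Hey2 and Heyl, were at most 1.29 TPM in a library and below the filter.

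Dtx3, related to the Deltex ubiquitin ligases that act on Notch receptors, did not pass the test. It was at 28.8, 34.4, 38.9, 27.6 and 23.4 TPM in naive against 20.3, 25.9 and 20.3 TPM in CCl4 libraries. The groups overlapped through naive replicate 5 and CCl4 library 2-4. The log2 fold change was -0.44 (SE 0.178, limma adjusted p = 0.0789), and it passed without naive replicate 5 (-0.52, limma adjusted p = 0.0253). Under the rescalings it passed with protein-coding genes (-0.50, limma adjusted p = 0.0219), without 7SL and 7SK RNA (-0.52, limma adjusted p = 0.0201) and by median-of-ratios (-0.38, limma adjusted p = 0.044). Dtx3 is on chromosome 10, 127190373 to 127196498.

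The order of levels differed between groups. In naive libraries it ran Dll4, Notch1, Hes1, Notch4, Dtx3, Notch2, Nrarp, Rbpj, Jag1 and Hey1 by mean TPM. Neighbours whose ranges overlapped were Dll4 and Notch1, Notch1 and Hes1, Hes1 and Notch4, Dtx3 and Notch2, Nrarp and Rbpj, and Jag1 and Hey1. In CCl4 libraries the order was Notch2, Rbpj, Dtx3, Notch1, Hes1, Notch4, Jag1, Nrarp, Hey1 and Dll4. There Notch2, Rbpj and Hes1 were clear of their neighbours, Dtx3 and Notch1 overlapped, and the genes from Notch4 down to Dll4 each overlapped the next. Dll4 went from the first place, above 95.0% of tested genes by naive mean, to the last, above 22.6% by CCl4 mean.

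**Figure D3:**
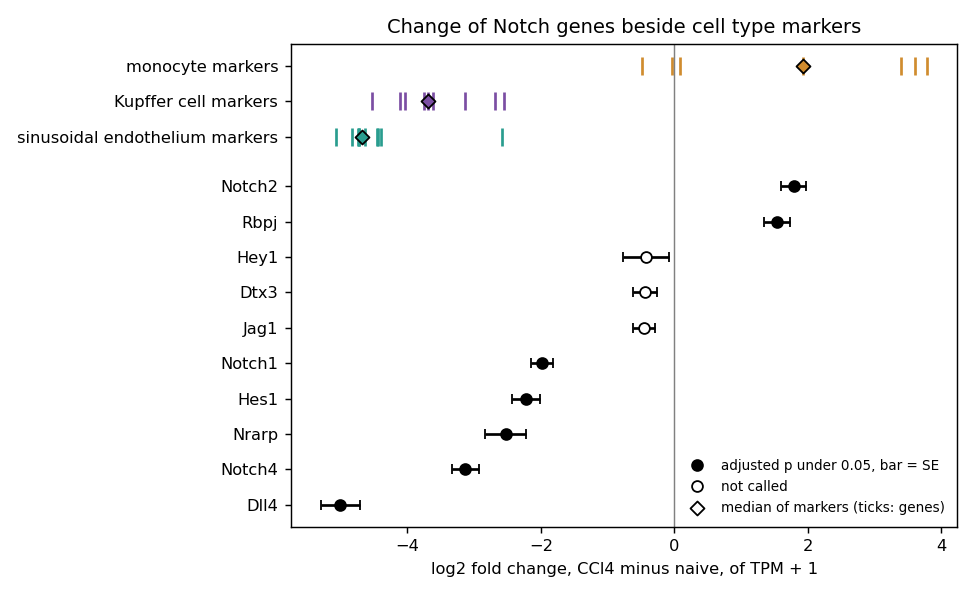
Log2 fold change of TPM + 1, CCl4 minus naive, of the 10 Notch genes with SE (filled: limma adjusted p under 0.05), beside the tested markers of sinusoidal endothelium, Kupffer cells and monocytes (ticks, with a diamond at the median). Dll4 at -5.0 lies among the endothelial markers, whose median is -4.68. Notch2 is at 1.79, and the monocyte markers are spread from -0.48 to 3.79, with a median of 1.93.

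The 10 genes were also set against the mean of the sinusoidal endothelium markers in each library, with all tested genes refitted. Since those markers fell so far, 99.2% of all tested genes rose relative to them and 0.0256% fell. In this comparison 9 of the 10 Notch genes were higher, a share near that background. Dll4 was the exception, at -0.54 relative to the markers (SE 0.340, limma adjusted p = 0.121). Whether Dll4 fell further than these markers turned on the settings. It was called lower with a pseudocount of 0.1 (-0.99, limma adjusted p = 0.00484) and with variances not pooled across genes (limma adjusted p = 0.00468), and lay above them with a pseudocount of 5 (0.38).

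Notch4 fell by 1.33 less than the mean of these endothelial markers (SE 0.346, limma adjusted p = 0.000444). Hes1 and Nrarp fell by 2.24 and 1.93 less, and Notch1 by 2.48 less. Relative to the mean of the Kupffer cell markers, 97.9% of tested genes were higher and 0.326% were lower. The p-values of this fit rest mostly on variances pooled across genes, with 269 prior degrees of freedom against 6 residual ones. Of the Notch genes 8 were higher, Dll4 was lower (-1.44, SE 0.326, limma adjusted p = 1.58e-05) and Notch4 did not differ from the mean of the Kupffer cell markers beyond its error (0.43, SE 0.326, limma adjusted p = 0.186). Notch4 was called higher there with a pseudocount of 5 (0.77), with library weights (0.88), with versioned transcripts (0.79) and without naive replicate 3 (0.66). Nrarp lost its call (1.04, limma adjusted p = 0.0034) with variances not pooled (limma adjusted p = 0.0733), with a pseudocount of 0.1 (0.65) and without CCl4 library 2-4 (0.58).

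Within the naive group the Notch genes did not follow a common order. Naive replicate 3 was highest for 6 of the 10 (Notch1, Notch4, Dll4, Jag1, Nrarp and Dtx3), as it was for 7 of the 10 sinusoidal endothelium markers and for 30.2% of all tested genes. The Kupffer cell markers were all 9 lowest in that library. Naive replicate 5 was lowest for Notch1, Dll4, Hes1, Hey1, Nrarp and Dtx3, and highest for Notch2 and Rbpj, the 2 genes that were higher in CCl4 libraries. Over all tested genes it was lowest for 44.3% and highest for 17.2%.

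**Figure D4:**
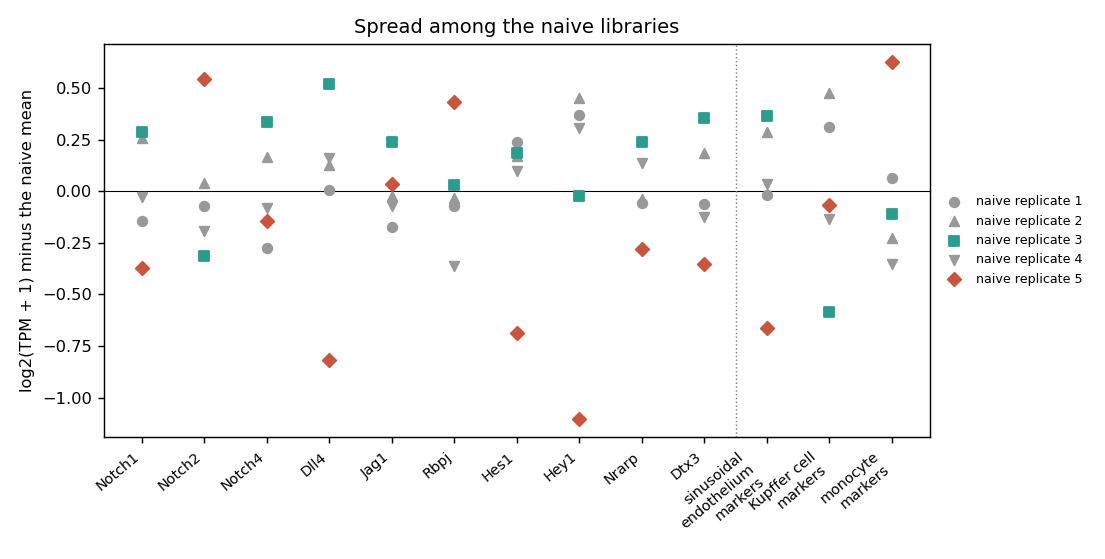
Log2(TPM + 1) minus the mean of the 5 naive libraries, for each Notch gene and for the mean of the sinusoidal endothelium, Kupffer cell and monocyte markers, with replicate 3 as green squares and replicate 5 as red diamonds. Dll4 is 0.52 above its naive mean in replicate 3 and 0.82 below it (-0.82) in replicate 5, and the endothelial markers are at 0.36 and -0.66.

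For each of the 8 Notch genes with a mean of at least 10 TPM, the most similar profiles over the 8 libraries were taken from 7686 other protein-coding genes by Pearson's r of log2(TPM + 1). These values are descriptions, since the difference between the groups sets most of each r and all points share the same libraries. Dll4 was most like Arhgef5 and the sinusoidal endothelial receptor gene Gpr182 (r = 0.999 for both). Notch4 was most like Adgrg1 and Btnl9 (r = 0.999 for both), Notch1 most like Arhgap31 and Gas2l1 (r = 0.998 for both), and Hes1 most like the endothelial sialomucin gene Emcn and Sgce (r = 0.998 for both). Nrarp was nearest to Gimap8 and Gimap6 (r = 0.997 for both). Notch2 was nearest to Ttc7 and to Itga4, an integrin subunit of leukocytes (r = 0.998 for both), Rbpj to Hmgb2 and Orai2 (r = 0.994 for both), and Dtx3 to Gphn and Med4 (r = 0.978 and 0.974).

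A wider list of 69 genes of the pathway, ordered by role, holds these 10 genes. Of the 69, 1 is not analysed here and 9 were below the filter, at most 1.29 TPM in any library. Of the 59 tested, 11 were higher and 17 lower, against 15.3% and 22.5% of all tested genes, and their median log2 fold change was 0.03 against -0.06. Without the 10 genes it was 9 higher and 12 lower of 49. With quantile normalization, which moved the median of all tested genes from -0.06 to 0.11, 19 of the 59 were higher and 16 lower, and over all tested genes 4011 were higher and 3086 lower in place of 2393 and 3513.

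The group listed as ligand ubiquitin ligases had 3 of 6 higher and none lower (4 of 6 at an unadjusted limma p under 0.05). It holds Mind bomb and neuralized family genes, and whether each of them acts on Notch ligands was not tested. Over all tested genes 15.3% were called higher and 22.5% lower. Neurl3, a neuralized family gene, went from 121.8 ± 22.2 to 240.5 ± 30.1 TPM (log2 fold change 0.99, limma adjusted p = 0.000916) and Neurl1b from 3.55 ± 1.35 to 11.5 ± 1.21 TPM (1.50, limma adjusted p = 0.000347). Mib2 rose by 0.48, a call lost without CCl4 library 2-4 (limma adjusted p = 0.0691), with versioned transcripts only (0.22, limma adjusted p = 0.438), with the most abundant transcript only (0.77, limma adjusted p = 0.0932) and with the replicate block (limma adjusted p = 0.334). Mib1, the Mind bomb ligase that drives ligand endocytosis, was at 68.3 ± 7.21 and 54.5 ± 4.78 TPM and did not pass (limma adjusted p = 0.0839), though it did under the rescalings to protein-coding genes (-0.38), without 7SL and 7SK RNA (-0.40) and by median-of-ratios (-0.26).

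Of 5 genes that glycosylate the receptors 2 fell, against 22.5% of all tested genes. They were Pofut1 at -0.51 and Poglut1 at -0.45, which add fucose and glucose to the receptor's EGF repeats. Pofut1 lost its call without any 1 of naive replicates 1, 2, 3 and 4 or CCl4 libraries 1 and 3, and Poglut1 without any 1 of naive replicates 1, 2 and 3 or of the 3 CCl4 libraries. With the most abundant transcript only neither passed (limma adjusted p = 0.0795 and 0.255), and Poglut1 was at -0.23 with quantile normalization (limma adjusted p = 0.128). Lfng, a fringe enzyme, stood at 62.9 ± 11.6 and 83.8 ± 7.70 TPM (0.42, limma adjusted p = 0.0649), and it passed without naive replicate 2 (0.49) and without naive replicate 5 (0.49). Mfng was at 31.2 ± 5.62 and 34.5 ± 6.75 TPM.

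Among genes of receptor cleavage 3 of 9 rose and 2 fell, against 15.3% and 22.5% of all tested genes. Aph1c, which encodes a subunit of gamma-secretase, went from 3.45 ± 0.676 to 11.1 ± 1.19 TPM (1.46, limma adjusted p = 9.11e-05). It has a close paralog, Aph1b, so how reads were split between them is uncertain. Psen2, a catalytic subunit, fell from 76.9 ± 21.8 to 33.1 ± 5.07 TPM (-1.16, limma adjusted p = 0.00172), and Ncstn, nicastrin, by 0.58, the latter lost without CCl4 library 2-4 (limma adjusted p = 0.0749) or 3 (limma adjusted p = 0.093). The protease gene Adam17 rose by 0.48, a call lost without any 1 of naive replicates 1, 3 and 4 or CCl4 libraries 1 and 2-4 and with the replicate block (limma adjusted p = 0.148). With the most abundant transcript only, Adam17 was at 0.09 (limma adjusted p = 0.795) and Ncstn at -0.15 (limma adjusted p = 0.607).

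In the nuclear complex Ep300, a histone acetyltransferase, rose beside Rbpj from 35.9 ± 3.87 to 62.6 ± 4.31 TPM (0.79, limma adjusted p = 0.000746). Maml2, a Mastermind coactivator, fell from 14.3 ± 3.08 to 6.32 ± 0.361 TPM (-1.03, limma adjusted p = 0.00165), while Maml1 and Maml3 did not pass, at -0.10 and 0.29. Maml1 was at 0.06 with quantile normalization. Among the corepressor genes Hdac1, a histone deacetylase, fell by 1.08 and Tle1 by 0.58. The call of Tle1 was lost with versioned transcripts only (-0.29, limma adjusted p = 0.226), with the most abundant transcript only (-0.21, limma adjusted p = 0.527) and with the replicate block (limma adjusted p = 0.143). Kdm5a, at -0.33, passed only without library 2-4 (-0.52, limma adjusted p = 0.0186) among the libraries left out.

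Genes of receptor turnover had 4 of 11 lower and 1 higher, against 22.5% and 15.3% of all tested genes. Nedd4, a ubiquitin ligase, fell from 119.7 ± 30.9 to 20.8 ± 6.85 TPM (-2.46, limma adjusted p = 3.85e-05), and Numb, an inhibitor of Notch, from 78.2 ± 13 to 22.5 ± 3.08 TPM (-1.74, limma adjusted p = 1.6e-05). Of the Deltex genes, Dtx4 rose from 8.92 ± 3.77 to 39.2 ± 12.8 TPM (2.05, limma adjusted p = 0.000281) and Dtx1 fell from 6.95 ± 1.16 to 2.65 ± 1.09 TPM (-1.16, limma adjusted p = 0.00207). The fall of Dtx1 was not called with versioned transcripts only (-0.62, limma adjusted p = 0.0856) or with the most abundant transcript only (-0.62, limma adjusted p = 0.103). Of the ligands Jag2, at 1.05 ± 0.351 and 1.28 ± 0.470 TPM, and of the targets Hes6, at 13.7 ± 3.69 and 17.3 ± 4.03 TPM, did not pass. All 10 sinusoidal and all 10 general endothelial markers fell in the same libraries, and their part in the falls on this list was not tested.

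**Figure D5:**
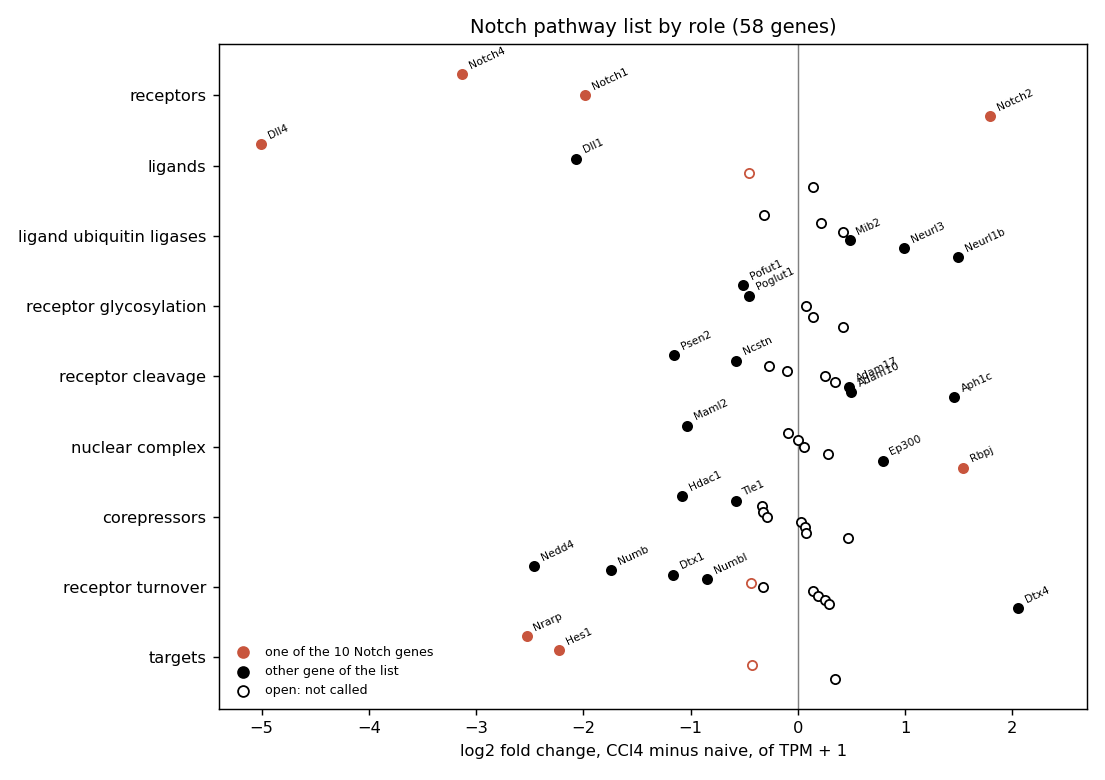
Log2 fold change of TPM + 1, CCl4 minus naive, of 58 of the 59 tested genes of the pathway list by role, with the 10 Notch genes in red, filled points for limma adjusted p under 0.05 and names at filled points. Receptors span -3.13 to 1.79, and both called target genes, Nrarp at -2.53 and Hes1 at -2.22, are lower.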

How the data were processed

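The authors deposited 1 table per library with a TPM for each RefSeq transcript, as the file headers show. kallisto 0.42.4 and GRCm38 come from the submitters' processing notes, and the index, trimming and cell isolation were not stated. Of 107384 transcripts, 86722 matched a RefSeq gene table of GRCm38.p6 by accession without version and were summed to 32903 genes, and unmatched transcripts held 6.06% to 7.58% of TPM. The 7SL and 7SK RNA genes held 32.5% to 45.0%, so rescalings were among the alternatives. Between 14059 and 15063 genes reached 1 TPM. Nothing states that libraries came from separate animals, so the p-values speak only of the spread among libraries, which may be technical.

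limma 3.58.1 (R 4.3.3; eBayes with intensity trend, group as the only term) was fitted on log2(TPM + 1), which understates the change of low genes, and was tested on simulated data. Exact permutation tests used scipy 1.17.1 over 56 splits. The members, lists and tests were chosen with earlier results of these data known. The text names the 10 genes, up to 4 others per role by adjusted p, similar profiles, and the 2 most abundant genes of each cell type list, printed only beside a result they touch. Genes below the filter and Aph1b were named after their values were seen. The values of 1 listed gene are not reported here, though the counts include it.

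Lists of other cells gave these counts of tested genes lower and higher: arterial endothelium 3 and 0 of 3, hepatocytes 4 and 0 of 6, cholangiocytes 0 and 1 of 4, stellate and mural cells 2 and 2 of 7, T and NK cells 3 and 1 of 8, B cells 0 and 0 of 6, dendritic cells 2 and 2 of 7, and neutrophils 1 and 0 of 1. Over all tested genes 22.5% were lower and 15.3% higher, and several of these short lists are near those shares.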

Additional observations from a re-analysis of the deposited data

Results flagged for a closer look

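Naive replicate 5 was far from the other naive libraries in 4 of the 44 values checked for a sample at a distance, where chance flags about 1 in 20. Hes1 was 39.0 TPM there and 68.1 to 75.1 TPM in the other naive libraries. Notch1 made up 44.3% of summed receptor TPM there and 54.1% to 55.6% in the others. Dll4 minus Jag1 was 3.13 on the log2(TPM + 1) scale and 4.13 to 4.26 in the others. Neurl1b was 5.94 TPM against 2.75 to 3.10 TPM. In each of the 4, replicate 5 lay on the side of the CCl4 values.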

How the results depend on the processing

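For the 10 genes, counts of 2 higher and 5 lower became 1 higher with versioned transcripts only, and 2 higher and 5 to 7 lower when 1 library was left out. The 7 lower came without naive replicate 5, where a larger share of all tested genes was called lower too. The count was also 7 with protein-coding genes rescaled and without 7SL and 7SK RNA. There 4031 of 14015 and 4626 of 17409 tested genes were lower, against 3513 of 15629 as planned. It was 6 with other settings, among them a pseudocount of 0.1, median-of-ratios scaling and library weights. The share of all tested genes called lower moved either way under those. Gene by gene under the alternatives, 223 values of the 10 genes kept direction and side of the threshold, 14 newly passed (Jag1, Dtx3 and Hey1) and 1 lost its call (Rbpj). Of the pathway list 19 of 59 tested genes were higher with quantile normalization, in place of 11 of 59. It was 6 of 51 with versioned transcripts only and 7 of 58 with the most abundant transcript only. Over all tested genes 4011 were higher with quantile normalization in place of 2393. With either transcript setting the share of all tested genes called higher fell as well. Leaving out 1 library gave 8 to 12 higher and 14 to 19 lower on the pathway list. The 19 lower came without naive replicate 5, which also gave the most lower calls over all tested genes. Of the other named pathway genes, 585 values kept their side, 46 lost and 9 gained a call. Maml1 turned from -0.096 to 0.0559 with quantile normalization.

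Relative to the endothelial markers, 1 of the 10 genes (Dll4) was lower in place of 0 with a pseudocount of 0.1 or 0.5, protein-coding genes rescaled, without 7SL and 7SK RNA, library weights, and no pooling of variances across genes, the last chosen after seeing the data. Leaving out 1 library gave 0 to 1, with 1 without CCl4 replicate 1. As planned, 0.0256% of all tested genes were lower in this comparison. Their share under these settings is not given here, so the counts of 1 have no background beside them. Dll4 turned from -0.54 to 0.3812 with a pseudocount of 5. The cause of these shifts was not tested.

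Numbers 1 and 3 occur in both groups. The deviations of same-numbered libraries from their group means had r = 0.0772 and -0.0414. With so few pairs this cannot show whether they share a day or batch. With the replicate number as a block, where numbers 1 and 3 alone bear on the difference, 2 of the 10 genes were higher and 5 lower, and relative to the Kupffer cell markers 5 were higher in place of 8. On the pathway list the block gave 8 higher and 14 lower. Over all tested genes the block also gave fewer calls, in both directions. The count over all tested genes relative to the Kupffer cell markers with the block is not given here.

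The limits are 5 against 3 libraries, an unknown depth, untreated rather than vehicle-treated controls, and cell preparations whose endothelial and Kupffer cell markers differed between the groups. In the relative fits all genes share the error of the marker mean. Pooling variances gave 33.0 prior degrees of freedom against the endothelial markers and 269 against the Kupffer cell markers, beside 6 residual ones. The p-values of these fits therefore rest mostly on pooled variances. An ordinary t-test without pooling moved the adjusted p both ways. For Dll4 against the endothelial markers it went from 0.121 with limma to 0.00468. For Nrarp against the Kupffer cell markers it went from 0.0034 with limma to 0.0733.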
